A study of Mus musculus with 7 samples.

Results

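The Rab11 recycling genes described here are 10 genes picked by symbol from the 23955 gene names of a read count table of 7 mouse esophageal epithelial cell lines. They are the GTPases Rab11a, Rab11b and Rab25, the Rab11 family interacting proteins (FIPs) Rab11fip1 to Rab11fip5, the motor Myo5b and the related GTPase Rab8b. All 10 were in the table and all 10 passed the filter on low counts, which kept 13768 genes. The lines fell into 3 groups. There were 3 lines with the missense allele p53R172H and the treatment label 4NQO, 2 lines without p53 (p53 -/-, numbered 1 and 3) with the same label, and 2 wild-type (WT) lines with no treatment label. 4NQO is the short name of 4-nitroquinoline 1-oxide, a carcinogen used to induce tumors of the esophagus in mice. All lines had a mixed strain background and were grown on plastic in keratinocyte serum-free medium. Whether each line came from its own animal is not in the labels, and a p-value here reflects variation among the lines, which may be technical. Genotype and the 4NQO label cannot be told apart in any comparison with WT.

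Internalised membrane proteins return to the cell surface through recycling endosomes. Rab11 GTPases mark the slow, perinuclear recycling compartment, bind FIPs through a short C-terminal domain shared by that family, and are coupled by some of them to actin and microtubule motors. In epithelia this route carries integrins, growth factor receptors and E-cadherin to the basolateral or apical surface. Rab11a and Rab11b are found in most tissues, whereas Rab25, also called Rab11c, is largely restricted to epithelial cells.

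Rab25 differs from Rab11a and Rab11b at the codon of the glutamine that takes part in GTP hydrolysis, and the stretch around it is shown because Rab25 changed in these data where its close relatives were not called. Below are 30 bases of each coding sequence, read 5′ to 3′ from the GENCODE M21 transcripts (build GRCm38), with the codon in capitals.
Rab25: tgggacacggccggcCTGgagagatacaga
Rab11a: tgggacacagcagggCAGgagcggtacagg
Rab11b: tgggacactgctggcCAGgagcgctaccgt
Over the whole coding sequence, Rab25 was 65.6% identical to Rab11a and 71.0% identical to Rab11b, and Rab11a was 75.7% identical to Rab11b. Shared runs of bases were sought only in the transcript with the longest coding sequence of each gene. The longest run shared by any pair of the Rab25, Rab11a and Rab11b transcripts was 14 bases, and between Rab8a and Rab8b it was 17. Other transcripts of these genes and reverse complements were not compared.

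The start regions of Rab25, which fell in p53R172H against WT lines, and of Rab8b, which rose, are given from RefSeq (GRCm38.p6) as windows of 300 bases on the minus strand, 250 bases before the start site and 50 after it. The Rab25 window is chr3:88548230-88548529 and the Rab8b window is chr9:66919656-66919955. The motif searches covered both strands, and capitals mark the matches.
Rab25: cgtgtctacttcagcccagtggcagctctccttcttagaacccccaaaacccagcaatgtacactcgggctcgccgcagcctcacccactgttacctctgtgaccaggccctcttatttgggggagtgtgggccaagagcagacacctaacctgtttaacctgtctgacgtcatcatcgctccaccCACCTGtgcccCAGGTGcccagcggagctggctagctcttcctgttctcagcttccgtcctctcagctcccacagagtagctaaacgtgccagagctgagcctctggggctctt
Rab8b: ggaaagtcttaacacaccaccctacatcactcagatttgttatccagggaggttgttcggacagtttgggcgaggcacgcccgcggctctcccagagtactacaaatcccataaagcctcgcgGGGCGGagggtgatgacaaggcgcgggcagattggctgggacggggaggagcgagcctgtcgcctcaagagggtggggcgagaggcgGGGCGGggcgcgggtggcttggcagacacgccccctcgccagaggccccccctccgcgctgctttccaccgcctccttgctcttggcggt
The Rab25 window held the E-box CACCTG on each strand, beginning 64 and 53 bases before the start site, and no GC box (GGGCGG). The Rab8b window held 2 GC boxes, 127 and 40 bases before the start site, and no such E-box. Of all 32851 windows of this length, 20.2% held CACCTG and 35.7% held GGGCGG. Of the 10 genes, the search left out Myo5b, Rab11fip1 and Rab11fip4. For the other 7 genes it covered 9 windows in all. CACCTG stood in 2 of them, the second being 1 of the pair listed for Rab11fip3, and GGGCGG in 6, which belong to 5 genes. The AP-1 motif TGANTCA, present in 7.81% of all windows, and the p53 half-site, present in 8.36%, had no match in any of the 9. No window held more than 1 of these kinds of motif, so matches of different motifs did not overlap. A match is a string of letters and was not tested as a binding site.

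Total counts were 12751118 in WT 2 and 25469853 to 47000225 in the other libraries. Values are in CPM, read counts scaled to a common library total, with library sizes adjusted by the trimmed mean of M-values (TMM), which corrects for differences in library composition. Trp53, the targeted gene, was at 171.6, 250 and 254 CPM in p53R172H lines 1, 2 and 3, 8.73 and 4.71 CPM in p53 -/- lines 1 and 3, and 212 and 193 CPM in WT lines 1 and 2, low in both libraries labelled p53 -/-. The basal epithelial genes Krt5, Krt14 and Trp63 were at 168 CPM or more in every line. Of the genes of squamous differentiation, Krt13 was at 1.45 to 8.71 CPM in p53R172H lines, at 14.9 and 47.5 CPM in p53 -/- lines, and at 85.9 and 173 CPM in WT lines, and Krt4 was at most 9.72 CPM in all. Sox2 and Pax9, also listed as esophageal squamous genes, overlapped WT in p53R172H lines. Sox2 was at 36.1 to 148 CPM in p53R172H lines and 25.3 and 26.8 CPM in p53 -/- lines. In WT lines it was at 42.5 and 62.5 CPM. Pax9 was at 24.7 to 56.5, 16.5 and 24.4, and 26.1 and 39.9 CPM in the same groups. Of the blood and endothelial markers, Ptprc was at most 0.0609 CPM, Cdh5 at most 0.0203 CPM and Cd3e at 0 in all 7 libraries. The others reached 1.56 CPM (Kdr) or less, except Cd68 at 22.5 to 91.8 CPM.

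A gene was called when its adjusted p fell under 0.05 in edgeR's quasi-likelihood test, fitted over all 13768 genes with Benjamini-Hochberg adjustment. In p53R172H against WT lines, Rab25 and Myo5b fell, Rab8b rose, and the other 7 genes were not called. The 3 calls among 10 genes (1 higher, 2 lower) stood against 7.42% of all genes called (3.3% higher, 4.13% lower). The members' median log2 fold change was -0.11, against 0.08 over all genes. At an unadjusted p under 0.05, 2 members were higher and 4 lower, against 30.5% of all genes (15.9% higher, 14.6% lower).

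None of the 10 was called in p53 -/- against WT lines, where 0.138% of all genes were (0.0726% higher, 0.0654% lower). Of the members, 1 was higher and 0 lower at an unadjusted p under 0.05, against 20.2% of all genes (11.2% higher, 9.01% lower), and their median log2 fold change was 0.11, against 0.06 over all genes. In p53R172H against p53 -/- lines, 0 members and 0% of all genes were called. Even Trp53, ranked 1 of 13768 genes by p, was not called (log2 fold change 5.06, edgeR adjusted p = 0.0555). An uncalled gene in this comparison may therefore still differ. There, 1 member was higher and 3 lower at an unadjusted p under 0.05, against 14% of all genes (6.35% higher, 7.63% lower), and the median was -0.42, against 0.02 over all genes, with 9 of the 10 below 0, as were 6708 of all 13768 genes. Of the 9, Rab11fip3, Rab11fip2 and Rab11b were at -0.03, -0.05 and -0.07. Without p53 -/- line 1, Rab11a, Rab11b and Rab11fip2 were above 0 (0.05, 0.10 and 0.13).

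Among the GTPases, Rab25 was at 29.4, 20.3 and 15.3 CPM in p53R172H lines 1, 2 and 3, at 107 and 50.04 CPM in p53 -/- lines 1 and 3, and at 139 and 113 CPM in WT lines 1 and 2. All p53R172H lines were below all other lines, and the p53 -/- lines lay between the other groups. The log2 fold change of p53R172H over WT was -2.54 (SE 0.387, edgeR adjusted p = 0.0249), which is 0.172 times the WT level. For p53 -/- over WT it was -0.69 (SE 0.424, adjusted p = 0.388), and the single p53 -/- lines stood at -0.24 and -1.33 against the WT mean. For p53R172H over p53 -/- it was -1.86 (SE 0.383, adjusted p = 0.258), with no overlap of the groups. That value was -1.20 without p53 -/- line 1 and -2.30 without p53 -/- line 3.

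Rab11a, the ubiquitous GTPase of recycling endosomes, was at 204, 186 and 190 CPM in p53R172H lines, 233 and 187 CPM in p53 -/- lines, and 252 and 178 CPM in WT lines. The 3 groups overlapped, and the log2 fold changes of p53R172H and p53 -/- over WT were -0.16 (SE 0.196) and -0.03 (SE 0.215). Rab11b was at 76.9, 82.9 and 84.5 CPM in p53R172H lines, 94.3 and 76.5 CPM in p53 -/- lines, and 66.3 and 57.5 CPM in WT lines. Every line with the 4NQO label was above both WT lines, but neither comparison was called (log2 fold changes 0.39, SE 0.159, adjusted p = 0.152, and 0.46, SE 0.173, adjusted p = 0.214, by edgeR). Rab11b shares 329 exon bases with an opposite-strand transcript in GENCODE M21, and the strand setting of the counting is not given in the sources used here. RefSeq also lists Rab11b pseudogenes, so its counts are less certain.

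**Figure D1:**
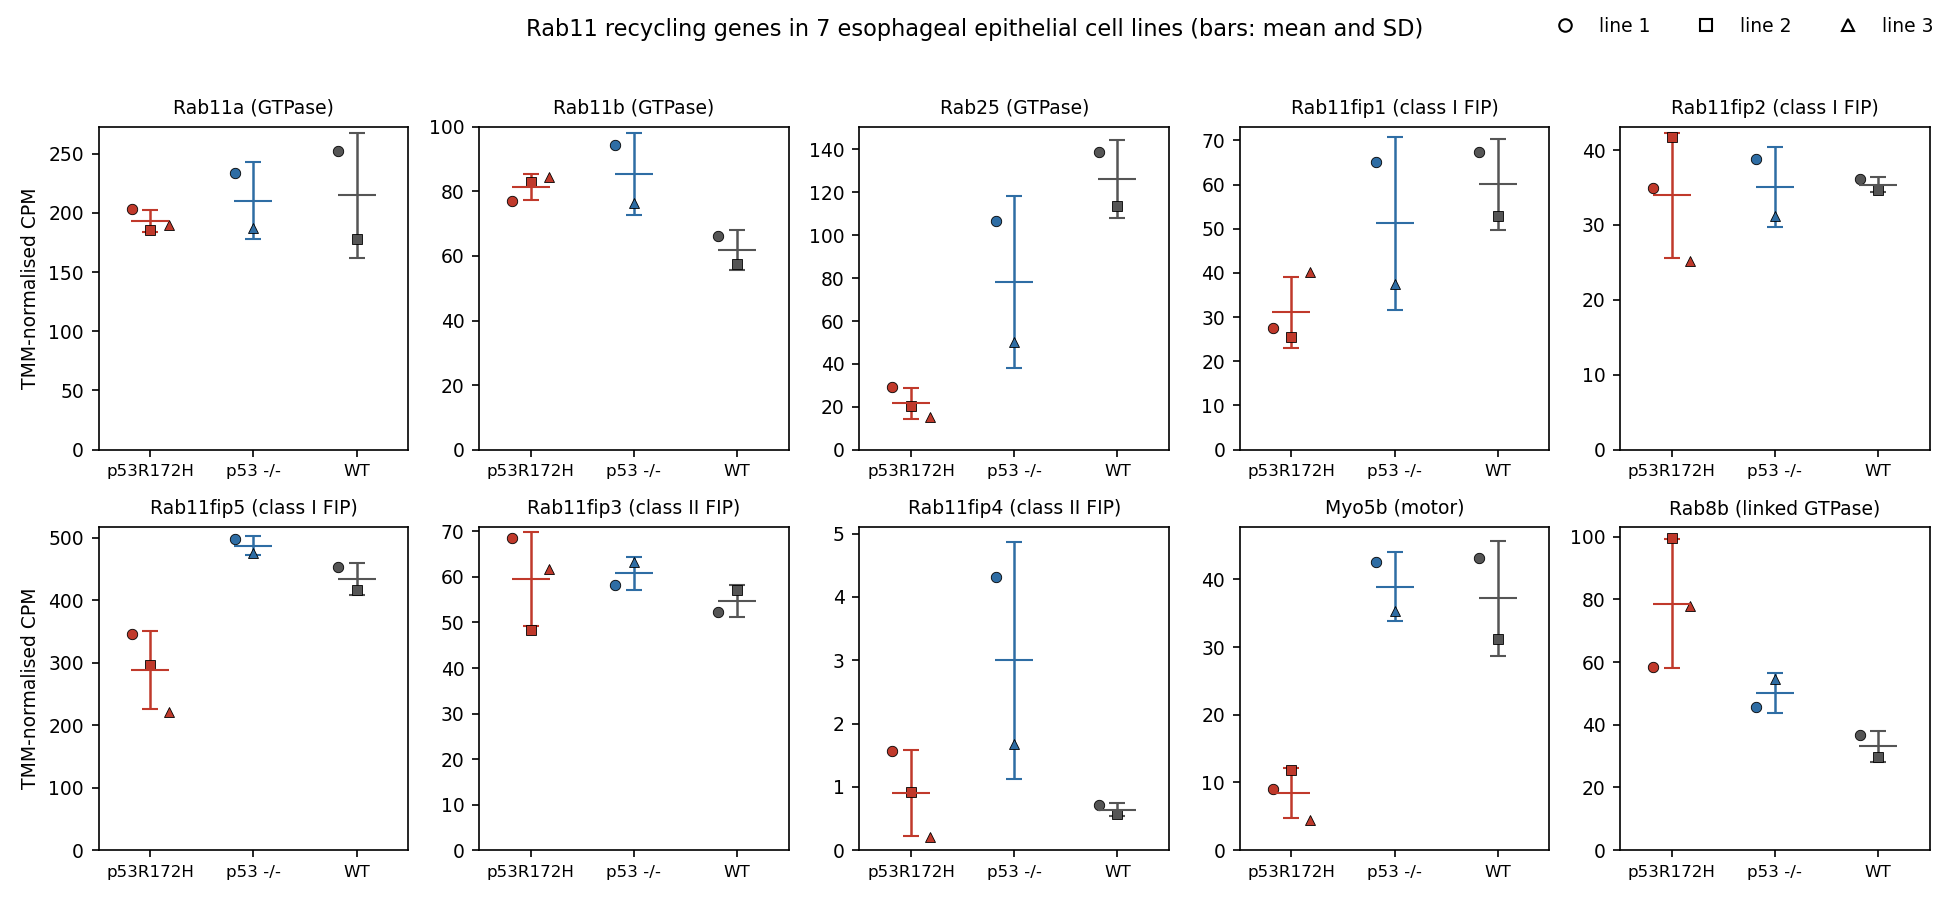
TMM-normalised CPM (y axis, from 0) of the 10 genes in each of 7 lines, grouped by p53 status (x axis), with symbols for the line number and bars for the mean and SD. Rab25 and Myo5b are lowest in all 3 p53R172H lines (at most 29.4 and 11.8 CPM), and Rab8b is highest in them (58.5 to 99.5 CPM).

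The level of Rab25 relative to Rab11a within a library does not depend on the scaling between libraries. The ratio of Rab25 to Rab11a counts was 0.144, 0.109 and 0.0807 in p53R172H lines, 0.457 and 0.267 in p53 -/- lines, and 0.551 and 0.639 in WT lines. The ratio of Rab11b to Rab11a was 0.378 to 0.447 in p53R172H lines, 0.404 and 0.408 in p53 -/- lines, and 0.263 and 0.324 in WT lines. Per kilobase of annotated exon, Rab25 averaged 12.9 ± 4.26 CPM in p53R172H lines (SD, n = 3), 46.8 ± 23.9 CPM in p53 -/- lines (n = 2) and 75.4 ± 10.8 CPM in WT lines (n = 2). On that scale Rab11a averaged 64.5 ± 3.17, 70.3 ± 10.9 and 71.9 ± 17.6 CPM per kilobase in the same groups, and Rab11b 13.3 ± 0.648, 13.9 ± 2.05 and 10.1 ± 1.02. In WT lines the levels of Rab25 and Rab11a per kilobase did not differ beyond their spread, while in p53R172H lines Rab25 stood beside Rab11b. That position depends on the annotated exon lengths, 1673 bases for Rab25 and 6130 for Rab11b, which need not be those of the transcripts present. Without division by length, Rab25 averaged 21.7 CPM and Rab11b 81.4 CPM in p53R172H lines.

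The order of the levels per kilobase of exon differed between groups, with Rab25 behind Rab8b and Rab11b in p53R172H lines, ahead of both in p53 -/- lines, and leading in WT lines. In p53R172H lines it ran from Rab11a over Rab11fip5, Rab8b (16.6 ± 4.34 CPM per kilobase), Rab11b, Rab25, Rab11fip3 (8.59 ± 1.49), Rab11fip2 (5.59 ± 1.37), Rab11fip1 (2.88 ± 0.740) and Myo5b (0.862 ± 0.379) to Rab11fip4 (0.121 ± 0.0913). From Rab8b through Rab11b and Rab25 to Rab11fip3, no neighbours differed beyond their spread (their ranges of mean ± SD overlapped). In p53 -/- lines it ran from Rab11fip5 over Rab11a, Rab25, Rab11b, Rab8b (10.6 ± 1.36), Rab11fip3 (8.76 ± 0.531), Rab11fip2, Rab11fip1 (4.74 ± 1.81) and Myo5b (3.99 ± 0.528) to Rab11fip4 (0.402 ± 0.252). Here only Rab25 and Rab11b, Rab11fip3 and Rab11fip2, and Myo5b and Rab11fip4 were neighbours that differed beyond their spread. Rab25 came first in WT lines, followed by Rab11a, Rab11fip5, Rab11b, Rab11fip3 (7.90 ± 0.505), Rab8b (6.99 ± 1.04), Rab11fip2 (5.82 ± 0.170), Rab11fip1 (5.56 ± 0.95), Myo5b (3.81 ± 0.871) and Rab11fip4 (0.0861 ± 0.0139). Among these, Rab11fip5 and Rab11b, Rab11b and Rab11fip3, and Myo5b and Rab11fip4 were the neighbours that differed beyond their spread.

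Among the class I FIPs, which carry a lipid-binding C2 domain, none was called. Rab11fip1, the Rab coupling protein known from integrin recycling, was at 27.6, 25.5 and 40.3 CPM in p53R172H lines, 65.0 and 37.4 CPM in p53 -/- lines, and 67.3 and 52.8 CPM in WT lines. The p53R172H lines were below both WT lines, and their range held the lower p53 -/- line. On the log2 scale, p53R172H differed from WT by -0.95 (SE 0.310, edgeR adjusted p = 0.100), and for p53R172H over p53 -/- it was -0.72 (SE 0.310, adjusted p = 0.366). Rab11fip1 shares 452 exon bases with an antisense transcript.

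Rab11fip5, also named Rip11, a FIP of apical traffic in polarised cells, was at 346, 297 and 221 CPM in p53R172H lines, 499 and 477 CPM in p53 -/- lines, and 453 and 416 CPM in WT lines. Here the p53R172H lines were below all other lines and the p53 -/- lines above them. The log2 fold changes were -0.59 (SE 0.210, edgeR adjusted p = 0.118) for p53R172H over WT, 0.17 (SE 0.232, adjusted p = 0.713) for p53 -/- over WT, and -0.76 (SE 0.210, adjusted p = 0.287) for p53R172H over p53 -/-. Rab11fip2, which binds Myo5b, was at 34.9, 41.8 and 25.2 CPM in p53R172H lines, 38.9 and 31.2 CPM in p53 -/- lines, and 36.1 and 34.7 CPM in WT lines, with overlapping groups and log2 fold changes of -0.06 (SE 0.250) and -0.01 (SE 0.274) against WT. Per kilobase of exon, Rab11fip5 was the leading FIP in each group, at 47.1 ± 10.3 CPM in p53R172H, 79.6 ± 2.57 CPM in p53 -/- and 70.9 ± 4.25 CPM in WT lines, and no other FIP averaged more than 8.76 CPM per kilobase.

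The class II FIPs carry EF-hands, which are calcium-binding folds, and take part in cytokinesis and in the placing of recycling endosomes. Rab11fip3 was at 68.6, 48.3 and 61.8 CPM in p53R172H lines, 58.2 and 63.4 CPM in p53 -/- lines, and 52.3 and 57.2 CPM in WT lines. Its log2 fold changes against WT were 0.12 (SE 0.189) and 0.15 (SE 0.206), both uncalled, and it shares 515 exon bases with an antisense transcript. Rab11fip4 was at the edge of detection. It had 77, 39 and 9 counts in p53R172H lines, 142 and 44 counts in p53 -/- lines, and 21 and 7 counts in WT lines, which gave 1.57, 0.926 and 0.206 CPM, 4.32 and 1.67 CPM, and 0.714 and 0.568 CPM. The log2 fold change of p53 -/- over WT, 2.21, was uncalled (SE 1.04, edgeR adjusted p = 0.286), and was 1.36 without p53 -/- line 1 and 2.74 without line 3. The p53R172H lines spread over the WT values on both sides.

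Myo5b, the class V myosin that pulls Rab11 vesicles along actin, was at 8.97, 11.8 and 4.47 CPM in p53R172H lines, 42.6 and 35.3 CPM in p53 -/- lines, and 43.2 and 31.2 CPM in WT lines. The p53R172H lines were below all others, and both p53 -/- lines lay within the WT range. The log2 fold change of p53R172H over WT was -2.14 (SE 0.404, edgeR adjusted p = 0.0352), and that of p53 -/- over WT was 0.07 (SE 0.443, adjusted p = 0.947). For p53R172H over p53 -/- it was -2.21 (SE 0.404, adjusted p = 0.258), not called although Myo5b ranked 51 of 13768 genes by p. The ratio of Myo5b counts to those of Myo5a, another class V myosin, was 0.0328, 0.0549 and 0.0247 in p53R172H lines, 0.184 and 0.172 in p53 -/- lines, and 0.259 and 0.193 in WT lines. Myo5a itself was at 181 to 274 CPM in p53R172H lines, 232 and 205 CPM in p53 -/- lines, and 167 and 161 CPM in WT lines, and it was not called (p53R172H over WT, log2 fold change 0.45, edgeR adjusted p = 0.189).

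Rab8b, a GTPase of the Rab8 branch that acts in transport to the plasma membrane, moved the other way. It was at 58.5, 99.5 and 77.8 CPM in p53R172H lines, 45.6 and 54.7 CPM in p53 -/- lines, and 36.6 and 29.6 CPM in WT lines. The 3 groups did not overlap, with p53R172H highest and WT lowest. Its log2 fold change for p53R172H over WT was 1.25 (SE 0.263, edgeR adjusted p = 0.0429), against 0.60 (SE 0.278, adjusted p = 0.2805) for p53 -/- over WT and 0.65 (SE 0.256, adjusted p = 0.340) for p53R172H over p53 -/-. Rab8a, its close relative, was at 110 to 170 CPM in p53R172H lines, 143 and 114 CPM in p53 -/- lines, and 151 and 133 CPM in WT lines. The ratio of Rab8b to Rab8a counts was 0.532, 0.610 and 0.457 in p53R172H lines, 0.320 and 0.482 in p53 -/- lines, and 0.243 and 0.223 in WT lines.

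**Figure D2:**
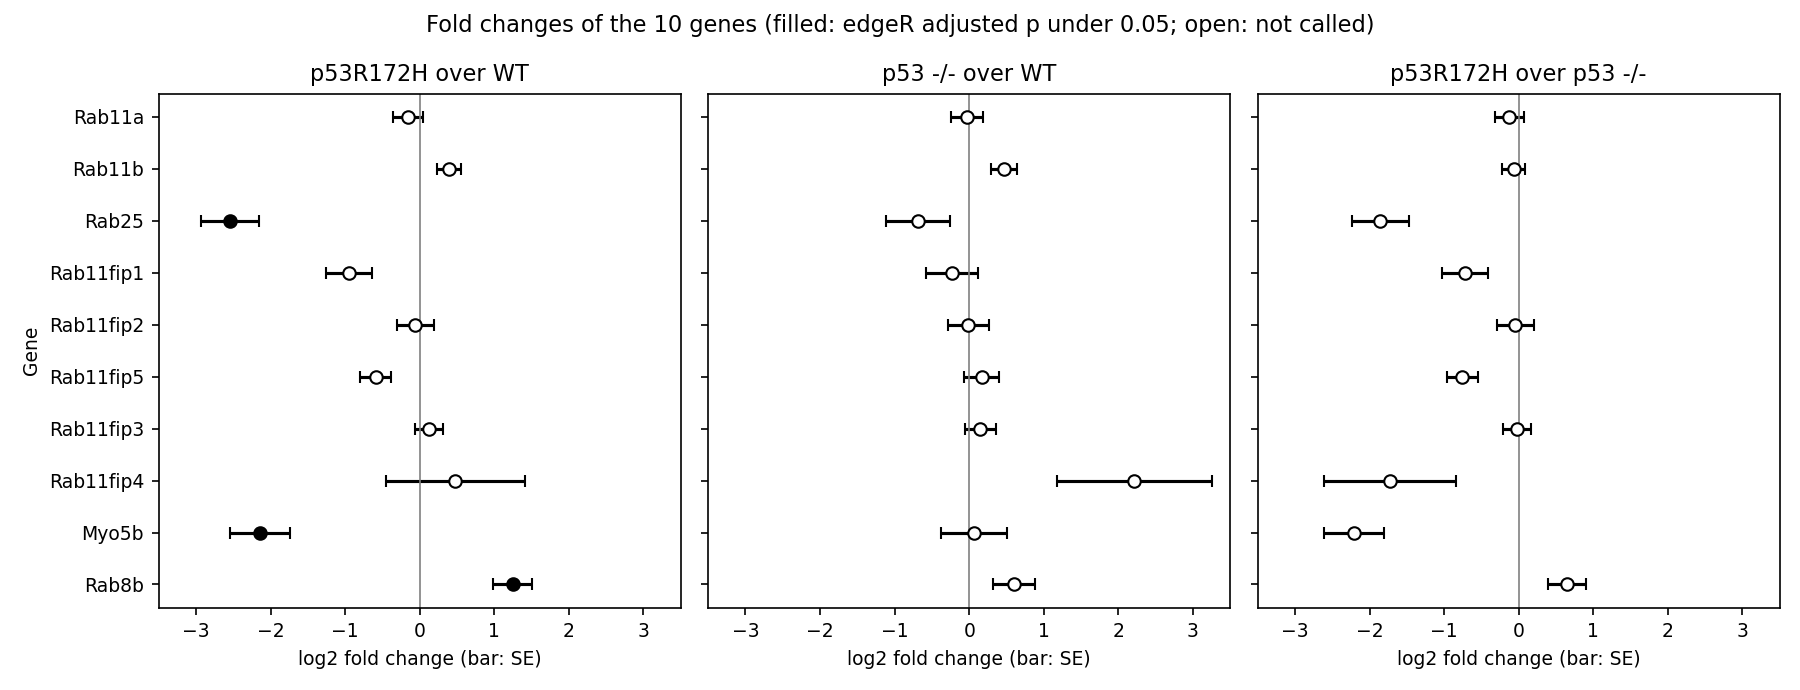
Log2 fold changes (x axis, bars are the SE) of the 10 genes (y axis) for p53R172H over WT, p53 -/- over WT and p53R172H over p53 -/-; filled points have an edgeR adjusted p under 0.05. Rab25 (-2.54), Myo5b (-2.14) and Rab8b (1.25) are the filled points, all in p53R172H over WT.

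Groups that did not overlap were common in the whole table. In p53R172H against WT lines, 2 members were higher and 4 lower without overlap, against 52.6% of all genes (26.9% higher, 25.7% lower). In p53 -/- against WT lines, 5 were higher and 1 lower, against 56.1% (29.1% higher, 27.1% lower), and in p53R172H against p53 -/- lines, 1 was higher and 4 lower, against 31.1% (16% higher, 15.1% lower). The comparisons share libraries, so their counts are not independent of each other.

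The 3 calls were lost in fits that left out WT 1, WT 2 or p53R172H line 2 or 3, while the fold changes stayed similar. Without WT 1 or WT 2 the WT arm is 1 library, assumed to vary like the other groups, and edgeR called 0 genes (unadjusted p was under 0.05 for 2840 and 2207). It called 37 and 6 genes, and 0 of the 10, without p53R172H line 2 or 3. In those fits Rab25 had adjusted p = 0.122, 0.168, 0.0731 and 0.0843, Myo5b 0.156, 0.193, 0.0663 and 0.0746, and Rab8b 0.148, 0.269, 0.0904 and 0.112. Their log2 fold changes in these fits were -2.68 to -2.36 for Rab25, -2.49 to -1.86 for Myo5b and 1.02 to 1.42 for Rab8b. All 3 calls were kept without p53R172H line 1 (edgeR adjusted p = 0.02445 for Rab25, 0.04685 for Myo5b and 0.02568 for Rab8b). DESeq2 called 5 of the 10 in p53R172H against WT, beside 23.8% of all genes with an adjusted p, adding Rab11fip1 (log2 fold change -0.97, adjusted p = 0.028) and Rab11fip5 (-0.61, adjusted p = 0.0418). In p53R172H against p53 -/- it called Rab25, Myo5b and Rab11fip5 lower (adjusted p = 0.000655, 9.32e-05 and 0.0262), where DESeq2 called 4.69% of all genes and edgeR called 0, with 1924 at an unadjusted p under 0.05. In p53 -/- against WT DESeq2 called 0 of the 10, beside 11.8% of all genes.

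Of 7 epithelial markers, Epcam and Krt5 fell in p53R172H against WT lines and none rose, beside the 7.42% called among all genes. Cdh1 and Krt14 were lower without overlap and not called, and Trp63, Krt8 and Krt18 overlapped WT, with Trp63 at a log2 fold change of -0.004 (SE 0.3296). The summed level of the 7 was 7084 to 9983 CPM in p53R172H lines, 10170 and 6152 CPM in p53 -/- lines, and 27830 and 37500 CPM in WT lines, most of it Krt5 and Krt14. This sum was low in both p53R172H and p53 -/- lines. Myo5b was low in p53R172H lines and within the WT range in p53 -/- lines, and so was Cdh1. Cdh1 was at 289 to 476 CPM in p53R172H lines, 742 and 762 CPM in p53 -/- lines, and 931 and 691 CPM in WT lines. The part of epithelial content in the values of Myo5b was not tested. Epcam, an adhesion molecule of simple epithelia, was at 175, 70.05 and 55.04 CPM in p53R172H lines, 353 and 388 CPM in p53 -/- lines, and 454 and 386 CPM in WT lines. The ratio of Rab25 to Epcam counts was 0.168, 0.290 and 0.278 in p53R172H lines, 0.302 and 0.129 in p53 -/- lines, and 0.306 and 0.294 in WT lines, with p53R172H lines 2 and 3 close to WT on this ratio, unlike on the ratio to Rab11a. The ratio of Rab25 to Cdh1 (E-cadherin) counts was 0.0618, 0.0702 and 0.0344 in p53R172H lines, 0.144 and 0.0657 in p53 -/- lines, and 0.149 and 0.164 in WT lines. In bulk RNA, fewer cells of a type and less RNA per cell cannot be told apart.

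The level of fibroblast markers varied within the p53R172H and p53 -/- groups. The sum of 8 such genes was 567, 9.73 and 376 CPM in p53R172H lines 1, 2 and 3, 8.03 and 420 CPM in p53 -/- lines 1 and 3, and 5.61 and 8.20 CPM in WT lines, with Lum at most 0.0203 CPM and Thy1 at most 0.493 CPM. In p53R172H line 2, where this sum was near the WT values, Rab25 was at 20.3 CPM, Myo5b at 11.8 CPM and Rab8b at 99.5 CPM. In p53 -/- line 3, where the sum was 420 CPM, Rab25 was at 50.04 CPM, Myo5b at 35.3 CPM and Rab8b at 54.7 CPM. In p53 -/- line 1, where the sum was 8.03 CPM, these genes were at 107, 42.6 and 45.6 CPM. The sum of 5 muscle markers, most of it Acta2, was 812, 640 and 167 CPM in p53R172H lines, 29.3 and 411 CPM in p53 -/- lines, and 152 and 280 CPM in WT lines. Their part in the values of Rab25, Myo5b and Rab8b was not tested.

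**Figure D3:**
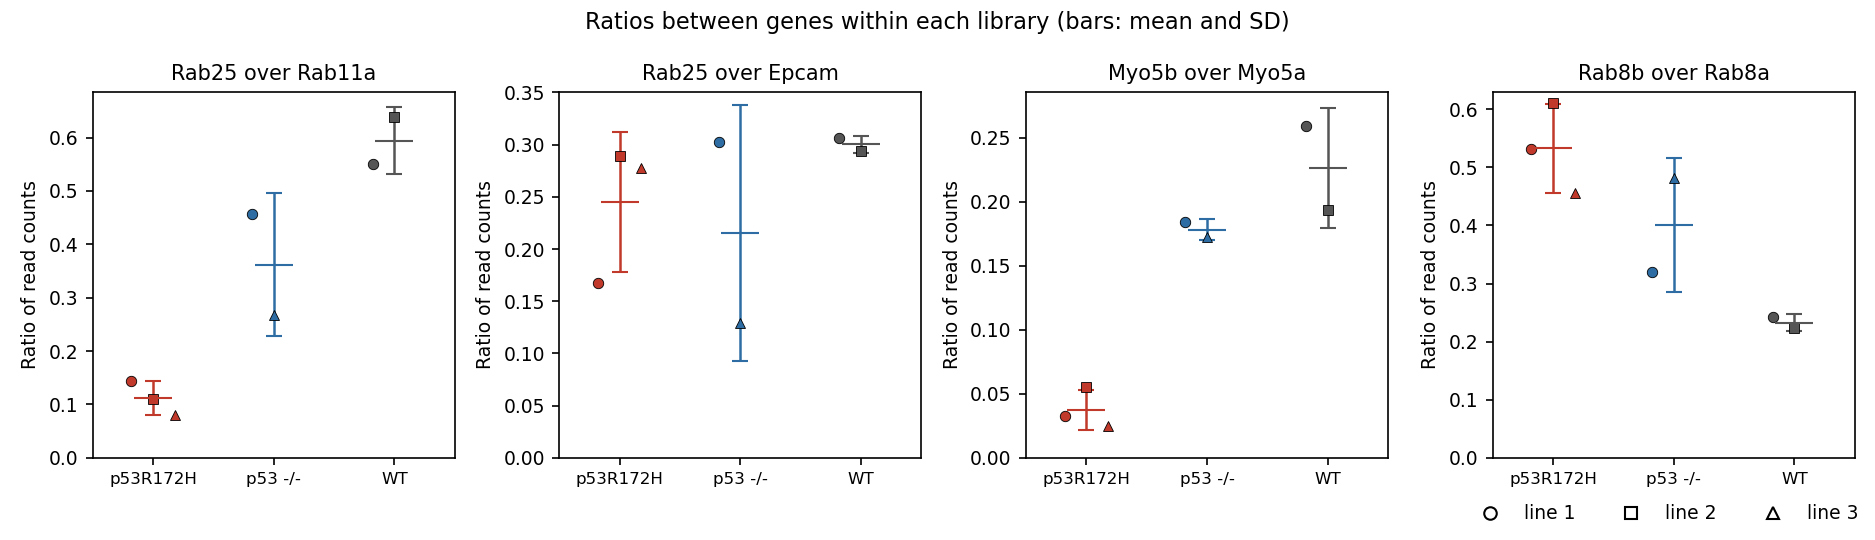
Ratios of read counts between genes of one library (y axis, from 0) by p53 status (x axis), with symbols for the line number and bars for the mean and SD. Rab25 over Rab11a is 0.0807 to 0.144 in p53R172H lines, 0.457 and 0.267 in p53 -/- lines, and 0.551 and 0.639 in WT lines. Rab25 over Epcam is 0.168 to 0.290, 0.302 and 0.129, and 0.306 and 0.294 in the same groups. Rab25 over Cdh1, which is not drawn, is 0.0344 to 0.0702, 0.144 and 0.0657, and 0.149 and 0.164.

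Across the 7 libraries, some members had like and others opposite profiles. On log2 (CPM + 0.5), Pearson's r was 0.953 for Rab11fip5 with Myo5b and 0.915 for Rab25 with Myo5b, and it was -0.91 for Rab25 with Rab8b. Rab11a and Rab11b had r = 0.17. Over 10099 named genes with a mean of at least 5 CPM, those most like Rab25 were Stxbp2, Slc6a14, Sp6, Il17re and Ly6e (r = 0.993 to 0.997), those most like Myo5b were Cgn, Ocln, Grb7, Hist1h2bc and Rassf7 (r = 0.981 to 0.993), and those most like Rab8b were Pdpk1, Rab31, Tob2, Ndufc1 and Irx2 (r = 0.981 to 0.994). An r of at least 0.95 was reached by 167 genes (1.65%) for Rab25, 29 (0.287%) for Myo5b and 136 (1.35%) for Rab8b. These values describe 7 libraries that share the group contrast and carry no test.

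The surrounding recycling pathway was represented by 63 further genes, all of them tested. In p53R172H against WT lines, 2 fell, none rose and 61 were not called, beside the 7.42% called among all genes. Their median log2 fold change was 0.10, close to the 0.08 of all genes, with 36 above 0 and 27 below. The highest value was that of Fcgrt, the receptor that recycles immunoglobulin G and albumin, named after its values were seen. It was at 23.8, 11.01 and 24.8 CPM in p53R172H lines, 0.974 and 31.4 CPM in p53 -/- lines, and 0 and 0.406 CPM in WT lines, and was not called (edgeR adjusted p = 0.0776). Neither in p53 -/- against WT lines (median 0.10, against 0.06 over all genes) nor in p53R172H against p53 -/- lines (median 0.05, against 0.02) was any of the 63 called.

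Exoc4, a subunit of the exocyst that tethers recycling vesicles to the plasma membrane, fell in p53R172H lines. It was at 43.8, 56.5 and 63.02 CPM in p53R172H lines, 33.1 and 46.5 CPM in p53 -/- lines, and 153 and 134 CPM in WT lines, so all 5 lines with the 4NQO label were below both WT lines. The log2 fold change was -1.40 (SE 0.221, edgeR adjusted p = 0.0259) for p53R172H over WT and -1.85 (SE 0.253, adjusted p = 0.0674) for p53 -/- over WT. The other 8 exocyst genes were not called in p53R172H against WT, and the range over all 9 was -1.40 to 1.08.

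Clic3, an intracellular channel protein known from integrin recycling together with Rab25 in human cancer cells, was the other called gene. It was at 6.55, 0.902 and 2.64 CPM in p53R172H lines, 10.7 and 5.43 CPM in p53 -/- lines, and 34.3 and 44.4 CPM in WT lines. The log2 fold change was -3.55 (SE 0.771, edgeR adjusted p = 0.045) for p53R172H over WT and -2.29 (SE 0.856, adjusted p = 0.215) for p53 -/- over WT. Both calls were lost without p53R172H line 2 or 3 (edgeR adjusted p = 0.0716 and 0.0746 for Exoc4, 0.0721 and 0.134 for Clic3). They were also lost without WT 1 or WT 2, which leaves 1 WT library. The log2 fold changes in these fits were -1.53 to -1.29 for Exoc4 and -3.71 to -3.11 for Clic3. Without p53R172H line 1 the log2 fold change of Clic3 was -4.49. In p53 -/- against WT, Exoc4 was called with no filter (adjusted p = 0.0351), with the newer quasi-likelihood form (0.0479) and by DESeq2 (2.67e-08), and Clic3 by DESeq2 (0.044).

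Of the Rab11 regulators, Sh3bp5, an exchange factor that loads Rab11 with GTP, had the second smallest p of the 63 in p53 -/- against WT. It was at 17.3 to 25.6 CPM in p53R172H lines, 16.4 and 17.9 CPM in p53 -/- lines, and 35.0 and 42.9 CPM in WT lines, with log2 fold changes of -0.87 (SE 0.231, edgeR adjusted p = 0.0656) and -1.18 (SE 0.260, adjusted p = 0.113) against WT. In p53R172H against p53 -/- lines, the smallest p-values belonged to the cargo Cdh1 (289 to 476 CPM in p53R172H lines against 742 and 762 CPM in p53 -/- lines, log2 fold change -0.90, edgeR adjusted p = 0.287) and to Acap2, a GTPase-activating protein for Arf6 (149 to 198 CPM against 118 and 116 CPM, log2 fold change 0.57, adjusted p = 0.287). None of the 7 Rab11 regulators, 12 genes of the Rab8 branch and motors, 16 of early and fast recycling endosomes, 7 sorting nexin and retromer genes or 4 SNARE genes was called in any comparison.

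**Figure D4:**
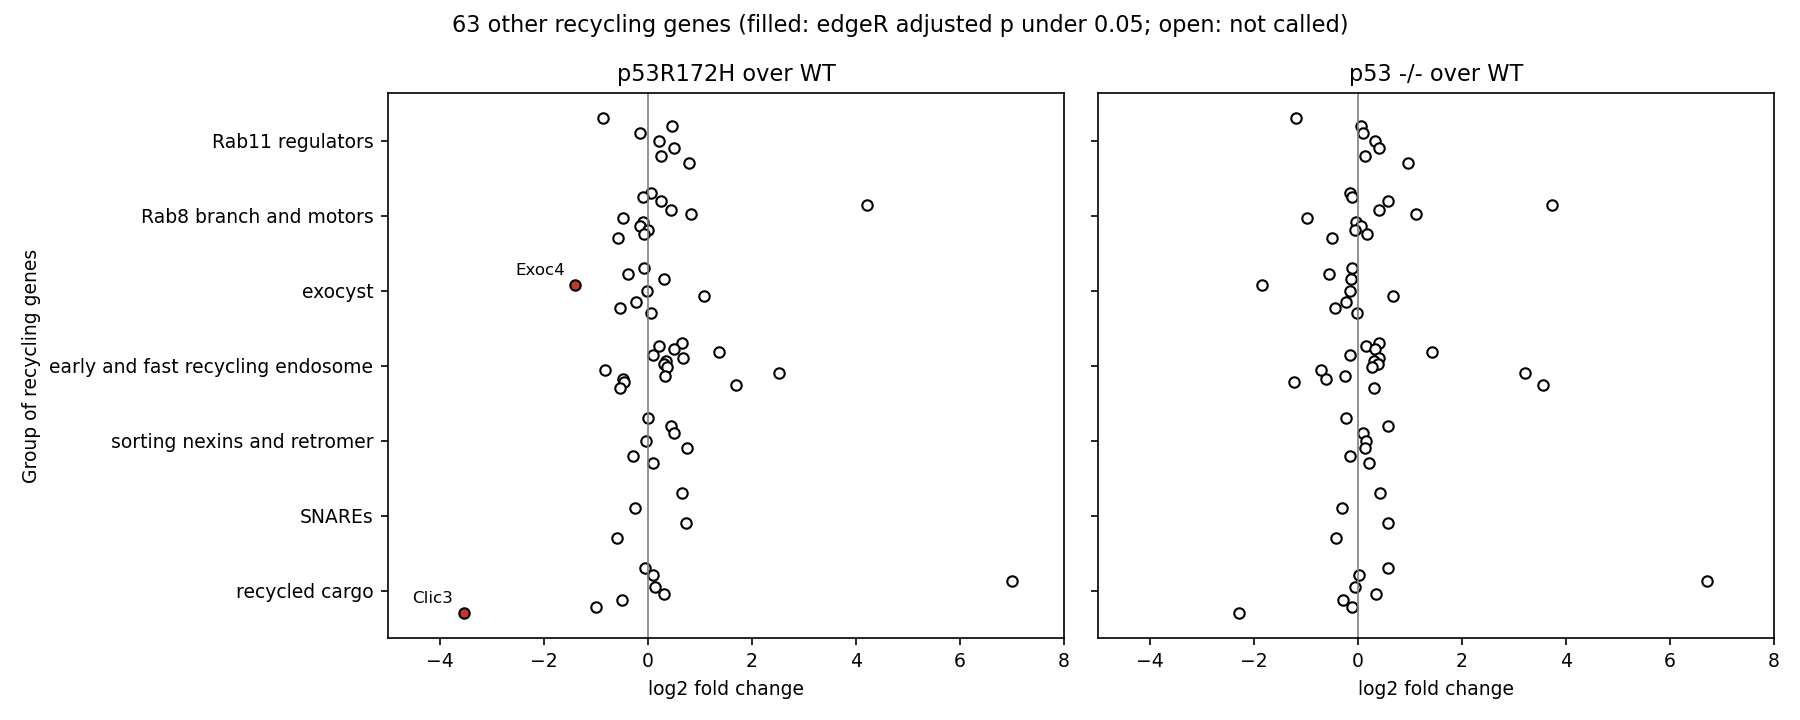
Log2 fold changes (x axis) of 63 further recycling genes by functional group (y axis) for p53R172H over WT and p53 -/- over WT; filled points have an edgeR adjusted p under 0.05. Exoc4 (-1.40) and Clic3 (-3.55) are the filled points, and the open point farthest to the right in the first panel is Fcgrt.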

How the data were processed

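Polyadenylated RNA of 7 cell lines was made into stranded libraries, per the labels' protocols. The authors deposited raw read counts per gene symbol. The submitters' processing notes name STAR 2.5.1b and mouse build mm9. The sources used here do not give the counting step, strand setting or annotation. The table's 92 spike-in names held 0 counts and were left out. Groups and line numbers came from the sample titles. No library repeated another of its group: these pairs gave a chi-square per degree of freedom of 56.4 or more.

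All 7 libraries entered 1 edgeR 4.0.16 fit (R 4.3.3; quasi-likelihood test in its legacy form, TMM factors, default expression filter by group, Benjamini-Hochberg threshold 0.05). Each SE is the log2 fold change divided by the root of its F value. The fit was tested on simulated data. Alternatives were RLE factors, no filter, a stricter filter (5 CPM or more in at least 2 libraries), DESeq2 1.42.0, limma-voom (limma 3.58.1), the newer quasi-likelihood form, fits of only the groups compared, thinning to 12751118 counts, a block for the line number, and fits without each line.

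Exon lengths, overlaps and coding sequences came from GENCODE M21 (GRCm38), which need not match the annotation used for counting, and no coordinates were carried between builds. Promoter windows came from RefSeq. The members, the recycling and marker lists and the rule for named genes were chosen with earlier results of these data known. That rule named all 10 members, called recycling genes or else the 2 with the smallest p per comparison, and the 5 genes most like Rab25, Myo5b and Rab8b. Myo5a, Rab8a, Fcgrt, Epcam and single markers were named outside it.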

Additional observations from a re-analysis of the deposited data

How the results depend on the processing

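In p53R172H against WT, Rab25 and Myo5b kept their direction in all 14 alternatives and their call in 9, and Rab8b kept its call in 8. Beyond leaving out lines, the calls of all 3 were lost with a replicate block (adjusted p = 0.0906, 0.1245 and 0.1635), and that of Rab8b also by limma-voom (adjusted p = 0.0671). The labels do not say that the line numbers pair the libraries. Deviations of same-numbered lines from their group means correlated at -0.0227 and -0.012 between p53R172H and WT. The values were -0.361 and -0.011 between p53R172H and p53 -/-, and 0.149 in the only such pair of p53 -/- and WT. Within WT and within p53 -/- the deviations are mirror images of each other, so these values cannot settle whether lines are paired. With the replicate block 0 members and 0 genes were called in p53R172H against WT and 0 genes in p53 -/- against WT (2887 and 1454 at an unadjusted p under 0.05). The cause of these losses was not tested.

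DESeq2 called 5 members and 3197 genes in p53R172H against WT (1714 higher, 1483 lower), 1548 genes in p53 -/- against WT, and 3 members and 604 genes in p53R172H against p53 -/-. In p53 -/- against WT, 77 genes were called with no filter, 58 with the newer quasi-likelihood form and 0 by limma-voom (2155 at an unadjusted p under 0.05), beside 19 in the primary fit. In p53R172H against p53 -/-, RLE factors, the stricter filter and the newer form each called 1 gene, and no filter 2. Leaving out single lines gave 0 to 1420 genes and 0 to 3 members in p53R172H against WT, 0 to 55 genes in p53 -/- against WT, and 0 to 22 genes in p53R172H against p53 -/-. In both comparisons with p53 -/- lines, 0 members were called without any single line.

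Several uncalled log2 fold changes changed sign. With thinned libraries, Rab11fip4 was at -0.77 in p53R172H against WT, where the primary fit gave 0.48. Rab11fip2 was at 0.0087 in p53 -/- against WT with thinned libraries. With the replicate block, Rab11fip2 was at 0.077 and 0.26 in p53R172H and p53 -/- against WT, and Rab11fip3 at 0.031 in p53R172H against p53 -/-. Without single lines, p53R172H against WT ranged over -0.39 to 0.13 for Rab11a, -0.25 to 0.096 for Rab11fip2, -0.0091 to 0.23 for Rab11fip3 and -0.21 to 0.93 for Rab11fip4. The ranges in p53 -/- against WT were -0.27 to 0.25 for Rab11a, -0.69 to 0.11 for Rab11fip1, -0.18 to 0.13 for Rab11fip2 and -0.16 to 0.32 for Myo5b. In p53R172H against p53 -/- they were -0.27 to 0.0497 for Rab11a, -0.21 to 0.098 for Rab11b, -0.23 to 0.13 for Rab11fip2 and -0.16 to 0.091 for Rab11fip3. Depth limits Rab11fip4 most, at 7 to 142 counts a library.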
